A study of Homo sapiens with 5 samples.

Results

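The 34 genes described here are the ligand, the receptors, the secreted antagonists and the feedback genes of Wnt signalling that could be named in a microarray study of TE7, a cell line from a human esophageal carcinoma. They were chosen by symbol: every coding gene whose name starts with WNT, FZD, DKK or SFRP followed by a digit, together with a fixed set of other receptors, antagonists and feedback genes. RefSeq holds 54 coding genes that meet this rule, and 34 of them were among the 14812 genes named for the array. They comprise 1 of 19 Wnt ligands (WNT2), all 10 Frizzled receptors, all 5 other receptors and co-receptors, all 10 secreted antagonists, all 4 genes of receptor turnover and R-spondin binding, and 4 of 5 nuclear and feedback genes. The other 18 ligands, PORCN and TCF7 were not analysed here. Each of the 34 genes was measured by 1 probe set.

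The study compared TE7 cells transduced with pMIRNA1-puro-CDH26, a construct expressing the cadherin CDH26, with TE7 cells transduced with pMIRNA1-puro-control. The groups held 2 control clones and 3 CDH26 clones, each grown from a single cell to confluence, so that a group is a set of separate clones and not a pool. All 5 clones were held for 24 h in RPMI with 1.8 mM calcium before total RNA was taken, and 1 Affymetrix Gene 2.0 ST array was run per clone. The spread within a group therefore includes differences between clones, and precision is limited by how few arrays there are.

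Wnt proteins are secreted, lipid-modified ligands that bind the cysteine-rich domain of a Frizzled receptor. With LRP5 or LRP6 as co-receptor they stabilise beta-catenin, which enters the nucleus and works with TCF and LEF proteins, while ROR and RYK receptors carry signals that do not depend on beta-catenin. In squamous epithelium of the esophagus and skin the pathway is known for its part in the upkeep of basal progenitor cells, and cadherins share beta-catenin with it as a cytoplasmic partner. Secreted antagonists either bind the ligand (SFRP proteins and WIF1), block the co-receptor (DKK1, DKK2 and DKK4) or remove the ligand's lipid (NOTUM). Several of these genes, among them AXIN2, NKD1, RNF43, ZNRF3, LGR5, LEF1, NOTUM and DKK1, are themselves known to be raised by beta-catenin.

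The deposited values are logarithms, taken here as log2, that the authors had set against the control mean of each probe set. They hold no expression level, so they cannot show whether a gene was expressed, and values of different genes cannot be ranked as levels. The transcript of the construct's gene, CDH26, was at 2.87, 3.01 and 2.63 in CDH26 clones 1, 2 and 3 and at 0.0067 and −0.0067 in the control clones, a difference of 2.84 ± 0.13 (SE). In limma, with Benjamini-Hochberg adjustment across all 14812 genes, its adjusted p was 0.25, and 0 genes passed the threshold of 0.05, which is 0.00% of those tested; at an unadjusted p under 0.05, 1113 genes did (7.51%). Without control clone 1 the adjusted threshold was passed by 186 genes. That fit holds 1 control clone and takes its spread from the CDH26 clones alone. With 2 and 3 clones, the smallest p that an exact permutation test allows is 0.1. The clones stood apart from one another to different degrees: control clone 2 lay more than 0.25 beyond all 4 other arrays in 1606 genes (10.8%), against 194 to 676 genes for each other clone. Of 10 listed squamous markers all 8 measured were higher on average with CDH26, against 47.9% of all genes. In 5 of them each CDH26 clone lay above both controls, against 8.98% of all genes. In limma 2 of the 8, KRT14 (2.72 ± 0.43, SE) and SFN (0.63 ± 0.11), had an unadjusted p under 0.05 and 0 passed the adjusted threshold. Without control clone 2 the difference went from 1.30 to 0.28 for SOX2, from 0.61 to 0.11 for KRT5 and from 0.92 to 0.09 for KRT13. Control clones 1 and 2 had medians of 0.40 and −0.40 over these 8 markers, against 0.75, 0.91 and 0.65 in the 3 CDH26 clones; their part in the Wnt gene values was not tested. Of markers for other cell types, all 12 measured columnar markers of 13 listed lay between −0.41 and 0.35 as differences. In limma 2 of the 12 had an unadjusted p under 0.05: KRT19, higher at 0.35 ± 0.11 (SE), and GATA6, lower at −0.41 ± 0.13. The groups did not overlap in these 2 of the 12 genes, against 18.9% of all genes in either direction. At that p there were 7.51% of all genes. All 3 measured endothelial markers of 6 listed lay between −0.02 and 0.01. The differences of 7 of 8 measured mesenchymal markers and 3 of 4 leukocyte markers were under 0.17 in size. The exceptions were LUM, which encodes the matrix proteoglycan lumican, with a difference of 1.59 ± 0.42, and the lysosomal protein CD68, with 1.07 ± 0.33.

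Across the Wnt genes the CDH26 clones had lower values more often than higher ones. The mean was lower in the CDH26 clones for 25 genes, higher for 8 and equal for LGR5, while over all genes 49.5% were lower and 47.9% higher. With each clone left out in turn the number of Wnt genes with a lower mean ran from 19, without CDH26 clone 2, to 26, without CDH26 clone 1. The median difference of the 34 genes was −0.05, against 0 over all genes, and 21 of the 34 differences (61.8%) were under 0.1 in size, close to the 60.3% of all genes. Of the 34, 0 passed the adjusted threshold in limma. At an unadjusted p under 0.05, 2 genes did, DKK1 and LRP5, both lower; that is 5.88% of the 34, against 4.00% of all genes in that direction, and 0 Wnt genes did so in the other direction, against 3.51%. In limma fits with a clone left out, 4 Wnt genes were lower and 1 higher at that p without control clone 1, where 20.4% of all genes passed in either direction. Without control clone 2, 1 was lower and 2 were higher (12.8% of all genes). Both fits with 1 control clone take their spread from the CDH26 clones alone. Without CDH26 clone 3, 3 were lower and 1 higher (9.66%), without CDH26 clone 2, 2 were lower (3.54%) and without CDH26 clone 1, 1 was, DKK1 (4.93%). In 4 Wnt genes (DKK1, LRP5, RYK and FZD8), or 11.8%, each CDH26 clone was lower than either control clone, close to the 9.93% found over all genes. All 3 lay above both controls in 0 Wnt genes, against 8.98% over all genes. At least 0.5 lower were DKK1, NOTUM, ROR1 and FZD2, 4 of 34 (11.8%), against 1.82% of all genes, and 0 Wnt genes were at least 0.5 higher, against 2.13%. In 3 of those 4 genes, NOTUM, ROR1 and FZD2, the control clones also differed by at least 0.5 from each other, and without control clone 2 the number at least 0.5 lower was 1, DKK1, against 1.77% of all genes.

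**Figure D1:**
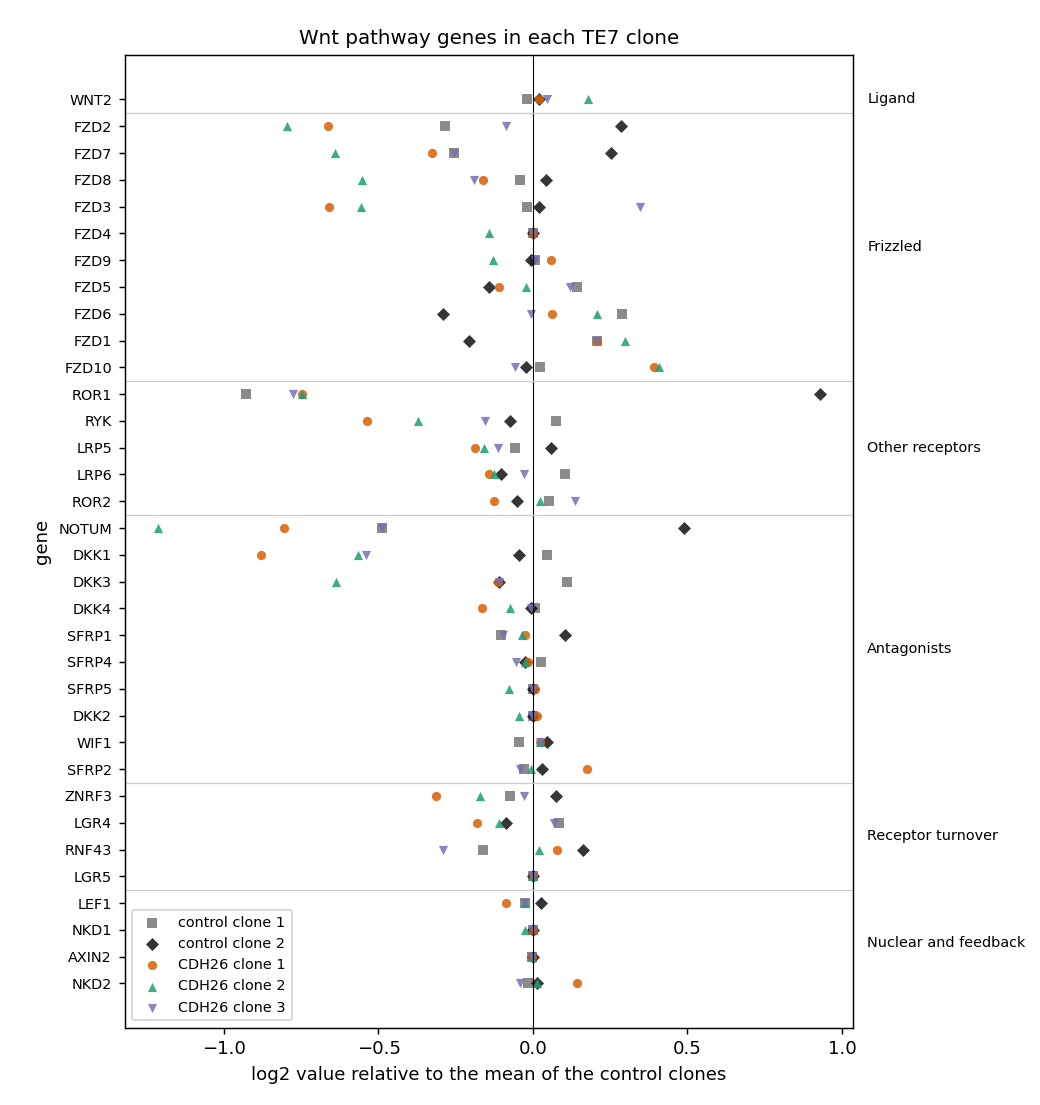
Deposited log2 value of each of the 34 Wnt pathway genes (rows, grouped by role) in each of the 5 TE7 clones, relative to the control mean (x axis). Squares and diamonds are control clones 1 and 2; circles and triangles are CDH26 clones 1 to 3. DKK1 is the gene in which the groups are farthest apart without overlap, while in ROR1, NOTUM, FZD2 and FZD7 control clone 2 lies alone on the right.

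Secreted antagonists held the clearest single difference. DKK1, which binds LRP5 and LRP6 and keeps them from joining the Wnt-Frizzled complex, was at 0.04 and −0.04 in control clones 1 and 2 and at −0.88, −0.57 and −0.54 in CDH26 clones 1, 2 and 3. All 3 CDH26 clones lay below both controls, and the smallest gap between the groups was larger than the whole range within either. The difference was −0.66 ± 0.13 (SE; 95% interval −1.02 to −0.30), a 1.58-fold lower value, with an unadjusted p of 0.0072 and an adjusted p of 0.626 in limma over all genes. With each clone left out in turn it ran from −0.72 to −0.55. The difference was larger than both the control gap and the range of the CDH26 clones in 2 Wnt genes, DKK1 and LRP5, or 5.88%, against 10.4% of all genes.

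The 250 bases before the DKK1 and LRP5 start sites are shown because these were the Wnt genes with an unadjusted p under 0.05; they are RefSeq sequences of GRCh38.p14, written 5′ to 3′ on the gene's strand, and the array data do not measure them. Of the 34 genes, 19 had such windows, 20 windows in all. Capitals mark matches, on either strand, to the TCF/LEF core CTTTGAA or CTTTGAT, the TEAD core GGAATG and the AP-1 motif TGANTCA.
DKK1 (chr10:52314031-52314280, plus strand): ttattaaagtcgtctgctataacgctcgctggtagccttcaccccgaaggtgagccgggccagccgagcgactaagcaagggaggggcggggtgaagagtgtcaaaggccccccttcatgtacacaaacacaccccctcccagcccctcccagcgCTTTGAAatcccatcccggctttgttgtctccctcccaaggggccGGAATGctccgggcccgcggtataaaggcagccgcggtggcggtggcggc
LRP5 (chr11:68312341-68312590, plus strand): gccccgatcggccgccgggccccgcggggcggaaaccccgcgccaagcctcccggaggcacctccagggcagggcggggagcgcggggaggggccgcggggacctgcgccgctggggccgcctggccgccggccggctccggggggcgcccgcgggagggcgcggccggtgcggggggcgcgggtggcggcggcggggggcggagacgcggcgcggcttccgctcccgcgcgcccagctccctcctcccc
The DKK1 window held 1 TCF/LEF match, from base −95 to base −89 counted from the start site, and 1 TEAD match, from base −50 to base −45. These do not overlap. The LRP5 window held no match, nor did those of RYK and FZD8, the other Wnt genes whose groups did not overlap. Over all 35116 windows of the same length, 5.94% held a TCF/LEF match, 11.9% a TEAD match and 6.57% an AP-1 match. Among the 20 windows of Wnt genes the numbers were 1, 2 and 1. The G and C content was 62.8% for DKK1 and 87.2% for LRP5, with medians of 70.4% over the Wnt gene windows and 58% over all windows.

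NOTUM, a secreted carboxylesterase that strips the palmitoleate from Wnt proteins, had the largest difference of all 34 genes and a wide spread. It was at −0.49 and 0.49 in control clones 1 and 2 and at −0.81, −1.21 and −0.49 in CDH26 clones 1, 2 and 3. CDH26 clone 3 had the same value as control clone 1, so the groups met, and only control clone 2 was high. The difference was −0.84 ± 0.40 (SE; unadjusted p = 0.106, limma). Leaving out control clone 2 gave −0.35, and leaving out control clone 1 gave −1.32.

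The other Dickkopf genes differed less. DKK3, a divergent member of the family that does not act on LRP5 and LRP6 as DKK1 does, was at 0.11 and −0.11 in the control clones and at −0.11, −0.64 and −0.11 in the CDH26 clones. Only CDH26 clone 2 was low; CDH26 clone 3 had the value of control clone 2. The difference of −0.29 ± 0.21 (SE) was −0.11 without CDH26 clone 2 and −0.18 without control clone 1. DKK4 was at 0.0057 and −0.0057 in the controls and at −0.16, −0.07 and −0.0057 in CDH26 clones 1, 2 and 3, a difference of −0.08 ± 0.05. DKK2, which can act as agonist or antagonist, spanned −0.05 to 0.01 over all 5 clones. All 4 Dickkopf genes were lower on average in the CDH26 clones, and DKK1 was the 1 whose groups did not overlap.

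Ligand-binding antagonists showed little movement in either direction. The SFRP proteins carry a Frizzled-like cysteine-rich domain that binds Wnt ligands. Their differences were −0.05 ± 0.07 (SE) for SFRP1, −0.03 ± 0.03 for SFRP4, −0.02 ± 0.03 for SFRP5 and 0.04 ± 0.08 for SFRP2, with overlapping groups in each. SFRP1 was at −0.10 and 0.10 in the control clones and between them, at −0.02, −0.03 and −0.10, in CDH26 clones 1, 2 and 3. SFRP2 was highest in CDH26 clone 1, at 0.17, while the other 4 arrays lay between −0.04 and 0.03. WIF1, which binds Wnt proteins through its own WIF domain, had the same value of 0.02 in all 3 CDH26 clones, between −0.04 and 0.04 in the controls. The 95% intervals of SFRP4, SFRP5, DKK2 and WIF1 reached less than 0.13 from 0 on this scale. They rest in part on tied values: both controls were at 0 in SFRP5 and DKK2, and the WIF1 CDH26 clones were equal. LGR5, at 0 on all 5 arrays, also had an interval of −0.05 to 0.05. Since no level is kept, such intervals do not tell an unchanged gene from one not expressed.

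**Figure D2:**
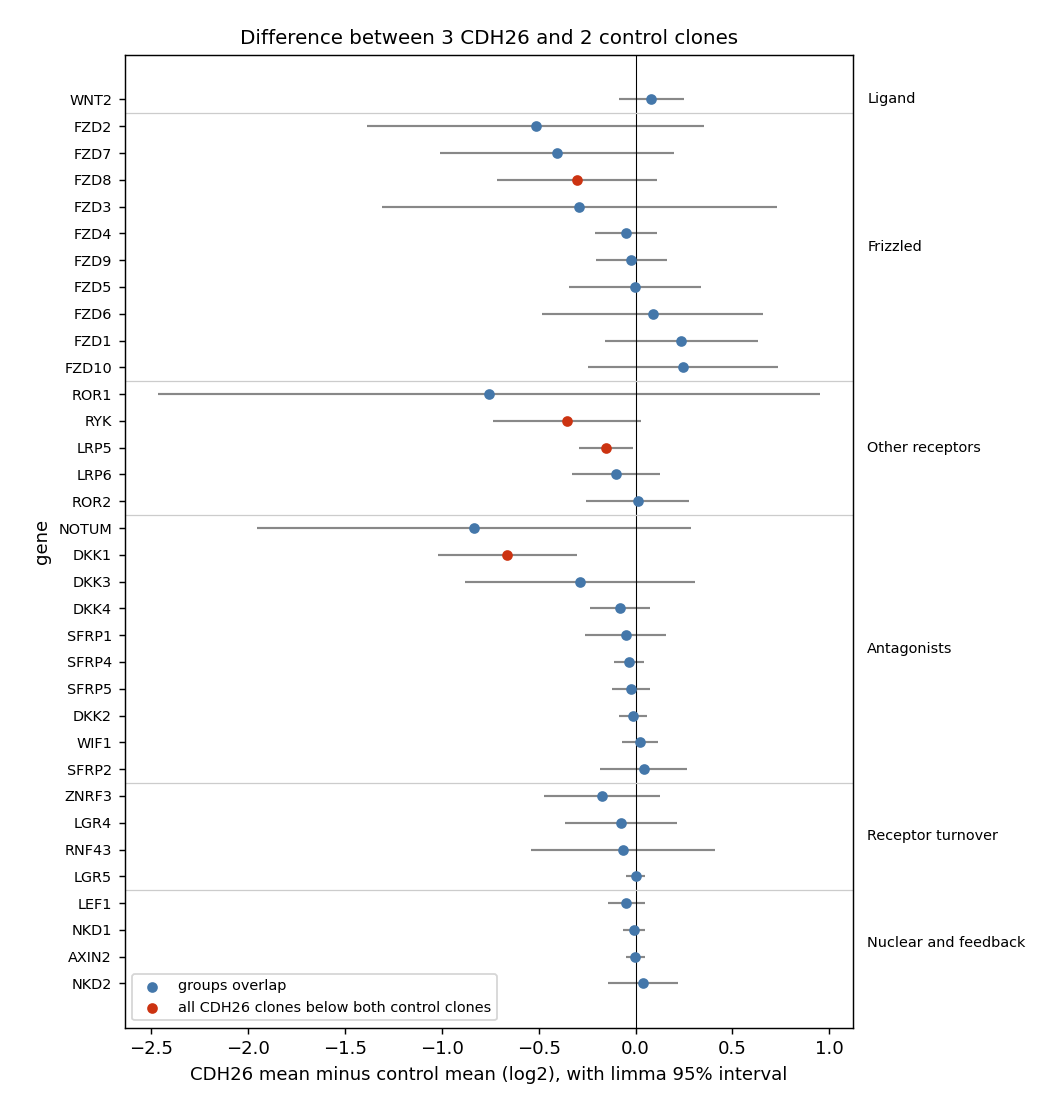
Difference between the mean of the 3 CDH26 clones and the mean of the 2 control clones (x axis, log2) for each of the 34 genes, grouped by role; lines are limma 95% intervals. Red points are the 4 genes with every CDH26 clone below both controls, and the intervals of DKK1 (−1.02 to −0.30) and LRP5 (−0.29 to −0.02) lie wholly below 0.

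Among co-receptors and receptors outside the Frizzled family, 4 of 5 genes were lower on average in the CDH26 clones; for ROR1 and LRP6 the sign depended on 1 control clone. LRP5, the co-receptor that with Frizzled recruits Axin to the membrane, was at −0.06 and 0.06 in control clones 1 and 2 and at −0.19, −0.16 and −0.11 in CDH26 clones 1, 2 and 3. All CDH26 clones were below both controls, within a narrow band. The difference was −0.15 ± 0.05 (SE; unadjusted p = 0.0368, adjusted p = 0.626, limma), a 1.11-fold lower value, and −0.09 without control clone 2. In limma that unadjusted p did not stay under 0.05: it was 0.111 when control clone 2 was left out, and 0.103, 0.101 and 0.0566 when CDH26 clone 1, 2 or 3 was. It was 0.0662 with the replicate number as a block and 0.117 with only genes of 5 different values. LRP6, its close relative, was at 0.10 and −0.10 in the controls and at −0.14, −0.13 and −0.03 in the CDH26 clones, and the groups overlapped through CDH26 clone 3. The difference of −0.10 ± 0.08 became 0.0050 without control clone 1 and −0.20 without control clone 2.

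RYK, a receptor with a WIF-type ligand-binding domain and an inactive kinase domain, was at 0.08 and −0.08 in control clones 1 and 2 and at −0.54, −0.37 and −0.15 in CDH26 clones 1, 2 and 3. All CDH26 clones were again below both controls, clone 3 by the least. The difference was −0.35 ± 0.14 (SE; unadjusted p = 0.0616, limma) and ran from −0.46 to −0.26 with each clone left out in turn.

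ROR1, a receptor tyrosine kinase-like protein that binds Wnt ligands and is known as an oncofetal antigen, separated 1 control clone from all others. It was at −0.93 in control clone 1 and 0.93 in control clone 2, and at −0.75, −0.75 and −0.78 in the CDH26 clones. Control clone 2 was high, and all 3 CDH26 clones lay within 0.18 of control clone 1. The difference of −0.76 ± 0.61 (SE; unadjusted p = 0.283, limma) changed sign to 0.17 when control clone 2 was left out. It was −1.69 without control clone 1. These fits thus gave opposite signs. Each had to take the spread of the single remaining control from the CDH26 clones, which lay within 0.03 of one another. ROR2, the related receptor for WNT5A, was at 0.05 and −0.05 in the controls and at −0.13, 0.02 and 0.13 in the CDH26 clones, a difference of 0.01 ± 0.09.

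The 10 Frizzled receptors, the ligand-binding receptors of the pathway, went in both directions, with 7 lower and 3 higher means and a median difference of −0.04; 0 had an unadjusted p under 0.05. In the subfamily of FZD1, FZD2 and FZD7 the members differed in direction. FZD2 was at −0.29 and 0.29 in control clones 1 and 2 and at −0.66, −0.79 and −0.09 in CDH26 clones 1, 2 and 3. FZD7, a Frizzled known from epithelial stem cells, was at −0.25 and 0.25 in the controls and at −0.33, −0.64 and −0.25 in the CDH26 clones. In both genes control clone 2 was the highest array and CDH26 clone 2 the lowest, and CDH26 clone 3 was at or above control clone 1. The differences were −0.52 ± 0.31 (SE) for FZD2 and −0.41 ± 0.21 for FZD7, and −0.23 and −0.15 without control clone 2. Without control clone 1 they were −0.80 and −0.66.

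FZD1 had the opposite arrangement. It was at 0.21 and −0.21 in control clones 1 and 2 and at 0.21, 0.30 and 0.21 in the CDH26 clones, so control clone 2 was the lowest array and CDH26 clones 1 and 3 had the value of control clone 1. Its difference of 0.24 ± 0.14 (SE) became 0.03 without control clone 2, and 0.44 when control clone 1 was left out. In all 3 genes of the subfamily control clone 2 was thus more than 0.25 away from every other array.

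FZD8, a high-affinity Wnt receptor, was the Frizzled gene whose groups did not overlap. It was at −0.04 and 0.04 in the control clones and at −0.16, −0.55 and −0.19 in CDH26 clones 1, 2 and 3. CDH26 clone 2 was much lower than the other two. The difference of −0.30 ± 0.15 (SE; unadjusted p = 0.11, limma) was −0.18 without CDH26 clone 2. FZD5, its closest relative, was at 0.14 and −0.14 in the controls and at −0.11, −0.02 and 0.12 in the CDH26 clones, a difference of −0.0038 ± 0.12.

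FZD3 and FZD6, both known from planar cell polarity, varied between clones more than between groups. FZD3 was at −0.02 and 0.02 in the control clones and at −0.66, −0.56 and 0.34 in CDH26 clones 1, 2 and 3. Clones 1 and 2 were low and clone 3 was the highest array. The range of 1.01 among the CDH26 clones was the widest of any Wnt gene, and the difference of −0.29 ± 0.36 (SE) was −0.61 without CDH26 clone 3, −0.11 without clone 1 and −0.16 without clone 2. FZD6 was at 0.29 and −0.29 in the controls, and its CDH26 clones, at 0.06, 0.21 and −0.01, lay between them.

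FZD10 also split the CDH26 clones. It was at 0.02 and −0.02 in the control clones and at 0.39 and 0.41 in CDH26 clones 1 and 2, but at −0.06 in CDH26 clone 3, the lowest array. The difference was 0.25 ± 0.18 (SE) and 0.40 without CDH26 clone 3. FZD4, which also serves as the receptor for norrin, was at 0 in 4 arrays and at −0.14 in CDH26 clone 2, and FZD9 was within 0.13 of the control mean in every clone.

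**Figure D3:**
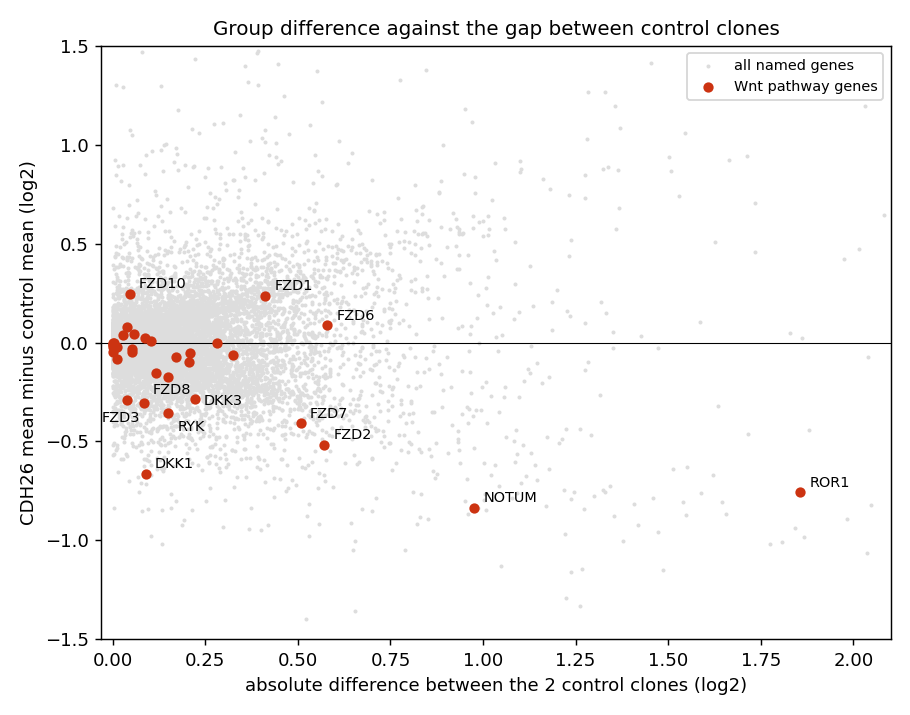
Group difference of each gene (y axis, CDH26 mean minus control mean, log2) against the absolute difference between the 2 control clones (x axis, log2), with the 34 Wnt pathway genes in red over the named genes that fall within the axes in grey. DKK1 combines a difference of −0.66 with a control gap of 0.09, whereas the gap was 1.86 for ROR1 and 0.98 for NOTUM.

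The single ligand with a named probe set, WNT2, was at −0.02 and 0.02 in control clones 1 and 2 and at 0.02, 0.18 and 0.05 in CDH26 clones 1, 2 and 3. The CDH26 clones were at or above the higher control, with clone 1 at its value. The difference was 0.08 ± 0.06 (SE; 95% interval −0.09 to 0.25), which did not pass the threshold, and 0.03 without CDH26 clone 2.

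Genes that set how long Frizzled stays at the cell surface had lower or equal means with overlapping groups in each, and RNF43 and LGR4 changed sign when a clone was left out. ZNRF3, a ubiquitin ligase that removes Frizzled and LRP6 from the membrane, was at −0.08 and 0.08 in the control clones and at −0.31, −0.17 and −0.03 in CDH26 clones 1, 2 and 3. CDH26 clones 1 and 2 were below both controls and clone 3 lay between them. The difference was −0.17 ± 0.11 (SE), and −0.10 without control clone 2 or without CDH26 clone 1. RNF43, the related ligase, was at −0.16 and 0.16 in the controls and at 0.08, 0.02 and −0.29 in the CDH26 clones, so that clone 3 was here the lowest. Its difference of −0.06 ± 0.17 became 0.10 without control clone 2 and 0.05 without CDH26 clone 3. LGR4, a receptor for the R-spondins that draw these ligases off Frizzled, was at 0.09 and −0.09 in the controls and at −0.18, −0.11 and 0.07 in the CDH26 clones, and its difference of −0.07 became 0.01 without control clone 1. LGR5, the R-spondin receptor known as an intestinal stem cell marker, had the value 0 on all 5 arrays; 2.55% of all genes had 1 value throughout.

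Nuclear and feedback genes overlapped between the groups in each of the 4 measured. AXIN2, a scaffold of the destruction complex, was at −0.0017 in 4 clones and at 0.0017 in control clone 2, with a 95% interval of −0.05 to 0.05 for the difference. NKD1, which binds Dishevelled, was at 0 in 4 clones and at −0.03 in CDH26 clone 2. NKD2 was at −0.01 and 0.01 in the controls and at 0.14, 0.01 and −0.04 in the CDH26 clones. LEF1, a DNA-binding partner of beta-catenin, was at −0.03 and 0.03 in the control clones and at −0.09, −0.03 and −0.03 in the CDH26 clones, a difference of −0.05 ± 0.03 (SE). Because no level is kept, a flat value does not tell a steadily expressed gene from one not expressed. Exact ties were common: in 15 of the 34 genes a CDH26 clone had the same value as a control clone, and 16 had a different value on each array (47.1%, against 46.3% of all genes).

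**Figure D4:**
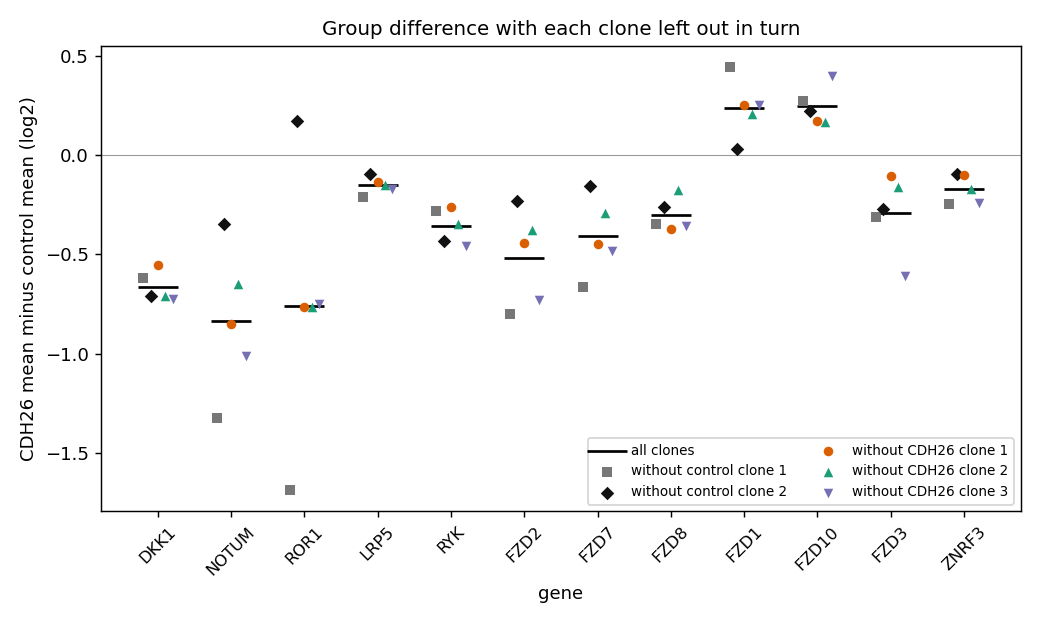
Group difference (y axis, CDH26 mean minus control mean, log2) of 12 Wnt pathway genes with all clones (black bar) and with each clone left out in turn (symbols). DKK1 stays between −0.72 and −0.55, whereas ROR1 moves from −1.69 without control clone 1 to 0.17 without control clone 2.

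Of the 13 Wnt genes with a difference of at least 0.1 in size, 1, ROR1, changed sign when a clone was left out; over all 34 genes 14 did, 9 of them among the 25 with a lower mean. In 8 genes the CDH26 mean stayed more than 0.1 lower whichever clone was omitted: DKK1, DKK3, FZD2, FZD3, FZD7, FZD8, NOTUM and RYK. In 1 gene, FZD10, it stayed more than 0.1 higher. All of these but DKK1, FZD8 and RYK had overlapping groups. The same counts were not made over all genes, so neither they nor the sign changes can be set against a background. Control clone 2 was more than 0.25 above all other arrays in FZD2, FZD7, NOTUM and ROR1 and more than 0.25 below them in FZD1 and FZD6, that is in 6 of the 34 genes, while control clone 1 was so in 0 (10.8% and 4.13% of all genes). CDH26 clone 2 was more than 0.25 below all others in 4, DKK3, FZD7, FZD8 and NOTUM, and was that far beyond all others in 1.72% of all genes. CDH26 clone 1 was so in 1, DKK1, where it was low (4.56% of all genes), and CDH26 clone 3 in 1, FZD3, where it was high (1.31%).

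Other genes of the pathway were taken from lists chosen by function, and 107 of the 154 listed had a named probe set. Of these, 2 were lower and 3 higher at an unadjusted p under 0.05 in limma, against 4.00% and 3.51% of all genes, and 0 passed the adjusted threshold. Their median difference was −0.0042, and in 13 genes each CDH26 clone lay below both controls and in 13 above both, against 9.93% and 8.98% of all genes. Of 30 genes for ligand export and other receptor-side steps, 1 was lower at that p: TMEM198, a scaffold of LRP6 phosphorylation, at −0.29 ± 0.08 (SE). The Wnt inhibitor TPBG, at 0.07 or less in size in the control clones and at 0.59, 0.65 and 0.17 in CDH26 clones 1, 2 and 3, had a difference of 0.47 ± 0.18. GPC4, a glypican that holds Wnt ligands at the cell surface, was at −1.13 and 1.13 in control clones 1 and 2 and at −1.78, −1.64 and −0.92 in the CDH26 clones. Control clone 2 stood above all other arrays, CDH26 clones 1 and 2 were below both controls and clone 3 lay between them. Its difference of −1.45 ± 0.80 became −0.32 without control clone 2, and −2.58 when control clone 1 was left out.

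Of 16 intracellular transducers, whose differences ran from −0.42 to 0.85, 0 had an unadjusted p under 0.05 in limma. The smallest p were for CXXC5, which binds Dishevelled (−0.42 ± 0.18, SE), and BTRC, the ubiquitin ligase subunit that marks beta-catenin for degradation (−0.23 ± 0.10). Among 15 nuclear cofactors CREBBP, a histone acetyltransferase and coactivator, was lower by this measure at −0.31 ± 0.06. PYGO1, which binds beta-catenin's partner BCL9, was higher at 0.52 ± 0.13, as was the transcriptional repressor HBP1 at 0.41 ± 0.10. Among 14 genes of planar cell polarity and beta-catenin-independent signalling, ANKRD6 (diversin) was higher at 0.11 ± 0.02, and the kinase CAMK2G was at −0.30 ± 0.11 with a p above the threshold.

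Transcripts known to be raised by beta-catenin, 32 measured, had a median difference of −0.04, with 22 lower and 10 higher means, against 49.5% and 47.9% of all genes. At an unadjusted p under 0.05 in limma there were 0 of them, against 7.51% of all genes. Their differences ran from −0.98 to 0.41, and CCND1 and FOSL1 were those with the smallest p. CCND1, which encodes cyclin D1, was at −0.24 and 0.24 in the control clones and at −0.67, −0.89 and −0.29 in CDH26 clones 1, 2 and 3, below both controls in each. Its difference of −0.62 ± 0.25 (SE) was −0.38 without control clone 2. FOSL1, an AP-1 subunit, was at −0.40 and 0.40 in the controls and at −0.40, −0.65 and −0.60 in the CDH26 clones, a difference of −0.55 ± 0.28 that became −0.15 without control clone 2, and −0.95 when control clone 1 was left out. In both genes, as in NOTUM and FZD2, control clone 2 was the highest array.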

How the data were processed

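RNA of 5 TE7 clones was measured on 1 array each, and clones were grouped from the labels. Per the submitters' processing notes the tool was Affymetrix Expression Console; neither its version, nor how probes were summarised, nor a genome build is given in the sources used here. The deposited values are logarithms, taken as log2, that the authors had centred on the 2 control clones: their values summed to at most 1e-06 in every row. The base is not recorded, and natural logarithms were tried. The array annotation named 15835 of 44607 probe sets, each with 1 gene, and 28772 had none; means over probe sets gave 14812 genes, with symbols matched to RefSeq (GRCh38.p14). No filter on dim probe sets was possible, since no level is kept.

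The comparison of the groups used limma 3.58.1 under R 4.3.3 (lmFit, eBayes, two-sided, no term but the group), adjusted by Benjamini-Hochberg over all genes; the prior degrees of freedom were 0.885. The step was tested on simulated data. The non-coding FZD10-AS1 and FZD4-DT were left out. Values are given by clone for genes with an unadjusted p under 0.05, a difference of at least 0.5 or the largest difference of their role, and for other Wnt genes as space allowed; of each list of other pathway genes, the 2 with the smallest p and any past 1 log2 unit are named. Genes and lists were chosen with earlier results of these data known. Values tied within 1e-05 count as equal. Figures were drawn with matplotlib 3.10.9.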

Additional observations from a re-analysis of the deposited data

How the results depend on the processing

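The alternatives were centring on array medians, robust variance, array weights, a replicate block, the probe set with the largest spread, every probe set, only genes whose 5 values all differ, natural logarithms, an adjusted threshold of 0.1 and each clone left out in turn. A variance trend was not run, since the values hold no level. Centring could change no value, since the median of each array was 0, and natural logarithms only rescaled the differences. With 1 probe set per Wnt gene, the probe set alternatives kept the Wnt values and changed only the genes fitted beside them. A Wnt gene result that held in these alternatives is therefore not a separate check. With only the genes whose 5 values all differ, CDH26 passed the threshold (difference 2.84, adjusted p = 0.0106, limma), as the 1 gene called, and the median Wnt difference was −0.087; as natural logarithms that median was −0.068 and all other differences grew by the same factor. With each clone left out the number of genes called ran from 0 to 186, of Wnt genes called from 0 to 1, of Wnt genes at an unadjusted p under 0.05 from 1 to 5 (3.54% to 20.4% of all genes), of Wnt genes without overlap from 4 to 17 (23.4% to 52.9% of all genes), of Wnt genes at least 0.5 lower (an alternative chosen after seeing the data, like the next) from 1 to 5, of Wnt genes with a lower mean from 19 to 26 and the Wnt median from −0.055 to −0.022; the 186 genes and the 1 Wnt gene, ROR1, were called without control clone 1. A fit with 1 control clone takes its whole spread from the CDH26 clones, so those calls leave out the gap between the controls. Fewer clones also make it easier for groups not to overlap. In limma, DKK1 kept an unadjusted p under 0.05 in each of these fits except the one without control clone 1. LRP5 did not keep it without control clone 2, without any of the 3 CDH26 clones, with the replicate block or with only genes whose 5 values differ.

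The deviations of same-numbered clones from their group means correlated at −0.20 for clone 1 and −0.21 for clone 2. With 2 controls the control deviations are equal and opposite, so these values are not separate checks. They do not settle whether the numbers pair the clones. With the replicate block 4 Wnt genes had an unadjusted p under 0.05, DKK1, FZD3 and ZNRF3 lower and FZD10 higher, against 7.96% of all genes, and the DKK1 difference was −0.72.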

Other observations

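Both non-coding neighbours of Frizzled genes that share the symbol pattern had named probe sets. FZD10-AS1 was at 0.06 and −0.06 in control clones 1 and 2 and at 0.17, 0.16 and 0.15 in CDH26 clones 1, 2 and 3, above both controls in each. FZD10 itself was at 0.39 and 0.41 in CDH26 clones 1 and 2 and at −0.06 in clone 3, so the pair parted in clone 3. FZD4-DT was at 0.33 in CDH26 clone 1, while the other 4 arrays lay between −0.0067 and 0.0067; FZD4 was at 0 in that clone.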
